A study of Mus musculus with 12 samples.

Results

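The 10 genes described here encode enzymes of glycolysis and its lactate branch, Gpi1, Pfkl, Pfkp, Pfkfb3, Aldoa, Tpi1, Pgk1, Eno1, Ldha and Ldhb. They were taken by gene symbol from the main category of probe sets on a mouse gene expression array, as 10 of the 21651 genes measured, and all 10 were found. The samples were brown adipose tissue (BAT) and white adipose tissue (WAT) of male C57 mice aged 4 months on a chow diet. The groups were BAT of triple mutants, BAT of ob/ob mice, WAT of triple mutants and WAT of ob/ob mice, with 3 arrays each and 12 in all. Triple mutants are labelled ob/ob/Cidea-/-/Cidec-/-, that is, ob/ob mice that also lack the lipid droplet proteins Cidea and Cidec. The ob/ob mutation removes the hormone leptin and makes mice obese, and every group carried it, so no lean mouse stands among the controls. The labels do not name the white depot or say where or how the Cide genes were deleted. They also do not say whether the arrays came from separate animals, so a p-value here reflects array-to-array spread that could be technical. Values are deposited log2 values from RMA, a method that corrects background, equalises arrays and summarises probes, and a difference of 1 between groups is a doubling of signal.

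Glycolysis turns glucose into pyruvate in the cytosol, and lactate dehydrogenase interconverts pyruvate and lactate. In fat cells the pathway also supplies the glycerol backbone of triglyceride, through the triose phosphates that aldolase and triosephosphate isomerase handle, and it supplies carbon for new fatty acids. Brown fat takes up much glucose when it makes heat. Phosphofructokinase is the committed and most regulated step, and the activator that Pfkfb3 makes is its strongest known positive signal. Lactate dehydrogenase is a tetramer of the A and B subunits, encoded by Ldha and Ldhb, and the B subunit is abundant in oxidative tissues such as heart.

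Several of these genes are textbook targets of the hypoxia factors, which can bind a core of the letters ACGTG. The promoters were searched for these letters on both strands, and variants of them were not searched for. RefSeq windows (build GRCm38.p6, 250 bases before to 50 after a transcript start) were present for all 10 genes, 16 windows in all, some of which overlap for Aldoa and Eno1. The core was in 6 of the 16 windows, belonging to Pfkfb3, Aldoa, Pgk1 and Ldha, against 19.6% of all 32851 promoter windows. The E-box CACGTG, which holds the core on both strands and so counts as 2 cores, was in 2 of the 16 windows (7.15% of all), 1 of Pfkfb3 and 1 of Ldha. The estrogen-related receptor half-site AAGGTCA was in 2 windows (4.72% of all), 1 of Tpi1 and 1 of Eno1. The GC box GGGCGG was in 12 windows (35.7% of all) and in 9 of the 10 genes, all but Ldhb. A match is a description of the letters and not a binding site. The windows below are examples: those of Pfkl and Ldhb hold no core, and those of Pfkfb3, Pgk1 and Ldha hold more than 1. They were picked with the expression changes known. Whether the core has a part in any change was not tested. Capitals mark ACGTG, or CACGT where the core is on the other strand, and each window is written 5′ to 3′ on the strand of its gene.
Pfkl promoter (chr10:78009758-78010057, minus strand): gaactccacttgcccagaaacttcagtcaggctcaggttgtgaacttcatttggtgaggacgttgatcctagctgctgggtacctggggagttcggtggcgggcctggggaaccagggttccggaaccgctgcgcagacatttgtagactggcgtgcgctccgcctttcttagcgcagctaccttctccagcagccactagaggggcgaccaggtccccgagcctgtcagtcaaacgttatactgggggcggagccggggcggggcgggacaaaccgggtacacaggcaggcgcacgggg
Ldhb promoter (chr6:142507908-142508207, minus strand): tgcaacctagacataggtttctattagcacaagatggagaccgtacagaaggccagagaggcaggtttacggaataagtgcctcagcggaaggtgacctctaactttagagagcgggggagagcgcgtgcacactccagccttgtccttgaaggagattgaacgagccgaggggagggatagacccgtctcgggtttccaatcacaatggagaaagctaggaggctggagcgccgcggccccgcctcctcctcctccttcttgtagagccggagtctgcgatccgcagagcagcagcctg
Pfkfb3 promoter, the downstream of its 2 windows (chr2:11502041-11502340, minus strand): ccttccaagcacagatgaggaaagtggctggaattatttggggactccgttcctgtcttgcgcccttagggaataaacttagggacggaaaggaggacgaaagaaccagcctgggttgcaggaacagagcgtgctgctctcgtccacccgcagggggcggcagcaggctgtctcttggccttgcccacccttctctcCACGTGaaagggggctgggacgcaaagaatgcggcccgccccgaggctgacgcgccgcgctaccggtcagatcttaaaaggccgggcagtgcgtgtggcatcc
Pgk1 promoter (chrX:106186850-106187149, plus strand): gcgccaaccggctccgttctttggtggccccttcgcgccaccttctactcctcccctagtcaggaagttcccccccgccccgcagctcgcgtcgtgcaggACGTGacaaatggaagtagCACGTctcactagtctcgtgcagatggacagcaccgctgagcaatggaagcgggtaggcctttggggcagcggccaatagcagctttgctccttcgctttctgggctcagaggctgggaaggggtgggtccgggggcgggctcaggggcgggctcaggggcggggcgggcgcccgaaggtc
Ldha promoter, the upstream of its 2 windows (chr7:46845554-46845853, plus strand): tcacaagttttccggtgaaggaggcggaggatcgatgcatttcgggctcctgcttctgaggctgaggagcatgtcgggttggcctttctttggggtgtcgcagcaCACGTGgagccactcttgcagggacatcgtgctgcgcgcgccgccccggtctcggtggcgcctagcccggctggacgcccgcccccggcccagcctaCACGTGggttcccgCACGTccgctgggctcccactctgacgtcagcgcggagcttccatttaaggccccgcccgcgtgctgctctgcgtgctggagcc
The Pfkfb3 window holds 1 E-box, hence 2 cores, the Pgk1 window holds 2 separate cores, and the Ldha window holds 2 E-boxes and 1 further core, 5 cores in all.

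Each gene was read from its brightest probe set by mean over the 12 arrays. In the deposited annotation (build NCBIM37) Gpi1 lies on chromosome 7 from 34986346 to 35015302, Pfkl on chromosome 10 from 77450016 to 77472494, and Pfkp on chromosome 13 from 6579120 to 6647976. Pfkfb3 lies on chromosome 2 from 11393062 to 11423694, Aldoa on chromosome 7 from 133938748 to 133942697, Tpi1 on chromosome 6 from 124760733 to 124764430, and Ldha on chromosome 7 from 54101211 to 54110997. These probe sets span a gene's exons and do not separate isoforms. The 10 genes had 16 probe sets, and Gpi1, Pgk1, Eno1 and Ldhb had more than 1. For Pgk1, Eno1 and Ldhb the brightest probe set was not at the gene's own locus. It covered 1743 bases on chromosome 12 for Pgk1, whose gene is on X (103382463 to 103399038), 967 bases on chromosome 2 for Eno1, whose gene is on chromosome 4 (149611364 to 149622984), and 1315 bases on chromosome 19 for Ldhb, whose gene is on chromosome 6 (142438769 to 142456477). Signal from near-identical copies cannot be told apart on such probe sets, so these 3 genes are uncertain and their own-locus values are given as well.

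Per array, 19.5% to 32.3% of genes exceeded the highest of 45 antigenomic control probe sets, a measure of background whose value was 7.40 to 8.13. Of the 10 glycolytic genes, 8 exceeded it on ob/ob WAT array 1, where Pfkl and Ldhb lay below it, and all 10 did on the other 11 arrays. White adipocyte markers were above it on every array (7 or 8 of 8), and so were most brown adipocyte markers on the BAT arrays (6 to 8 of 8) and on the triple mutant WAT arrays (7 of 8), but not on the ob/ob WAT arrays (0, 0 and 1 of 8). These counts do not tell BAT from triple mutant WAT. The brown list includes Cidea, which the labels give as deleted in triple mutants, and without it 5 to 7 of 7 were above the controls in BAT, 6 of 7 in triple mutant WAT and 0, 0 and 1 of 7 in ob/ob WAT. Skeletal muscle markers, such as Acta1 and Ckm, were strongest on 3 BAT arrays. Their mean log2 value was 10.59, 8.30 and 6.24 on triple mutant BAT arrays 1 to 3 and 7.62, 11.06 and 10.79 on ob/ob BAT arrays 1 to 3, against 5.38 to 5.48 on the 6 WAT arrays, where 0 of 10 exceeded the controls. Above the controls were 10, 6 and 0 of 10 on the triple mutant BAT arrays, and 4, 10 and 9 on the ob/ob ones. Results in BAT are therefore also given without triple mutant BAT array 1 and ob/ob BAT arrays 2 and 3. This leaves 2 triple mutant arrays and 1 ob/ob array that is assumed to vary like the others. Of these, triple mutant array 2 and the ob/ob array still held muscle signal. Cidea signal averaged 9.13 ± 0.82 in triple mutant WAT and 5.31 ± 0.39 in ob/ob WAT, and 11.32 ± 0.06 in triple mutant BAT and 11.45 ± 0.06 in ob/ob BAT (SD, n = 3). Cidec averaged 11.12 ± 0.11 and 11.56 ± 0.31 in the same WAT groups and 10.81 ± 0.02 and 10.92 ± 0.29 in the same BAT groups. The sources used here do not say which deleted stretches these probe sets cover, so the signals do not check the genotype labels.

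**Figure D1:**
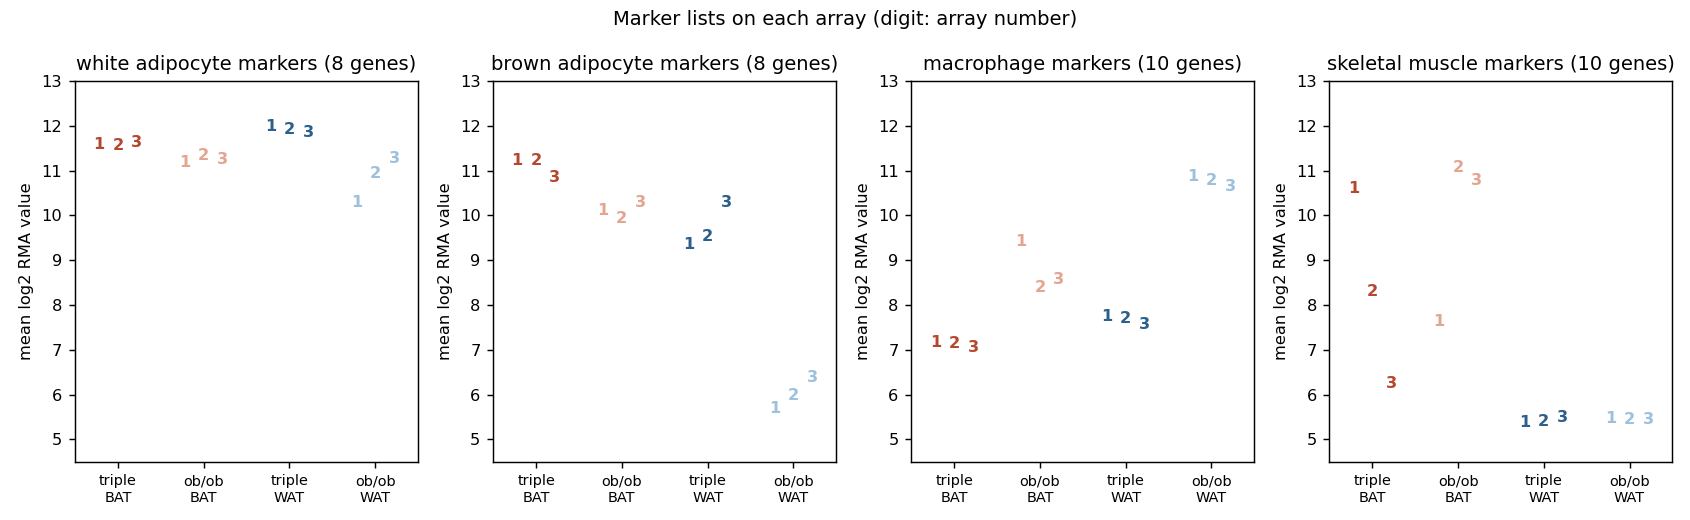
Mean log2 RMA value of 4 marker lists (vertical axis) on each array, drawn as its array number, for triple mutant BAT, ob/ob BAT, triple mutant WAT and ob/ob WAT (horizontal axis). Skeletal muscle markers ran from 6.24 to 11.06 among the 6 BAT arrays and stayed at or below 5.48 in WAT, and macrophage markers were highest in ob/ob WAT.

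In white fat, 8 of the 10 glycolytic genes rose in triple mutants relative to ob/ob mice, and none fell. Over all genes tested, 17.6% were called higher, 16.7% lower and 34.3% either way. The median log2 change of the 10 was 0.67, against 0.04 over all genes. The largest were those of the liver-type phosphofructokinase Pfkl (log2 change 2.31, SE 0.23), the lactate dehydrogenase subunit Ldhb (2.09, SE 0.56) and the phosphofructokinase activator gene Pfkfb3 (1.52, SE 0.19). The sizes for Pfkl and Ldhb are uncertain, since both genes lay below the controls on ob/ob WAT array 1. Without that array the change of Ldhb was 1.24. The platelet-type phosphofructokinase Pfkp and the lactate dehydrogenase subunit Ldha were not called. The groups did not overlap, with triple mutants higher, for 9 of the 10, all but Ldha, as for 24.9% of all genes. Groups failed to overlap in either direction for 46.6% of all genes, and with triple mutants lower for 21.8%. The list was drawn up with results of these arrays known, so its direction is not independent evidence.

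Hexose phosphate enzymes came first in the pathway and held the largest change. Gpi1, which turns glucose phosphate into fructose phosphate, was at 11.18, 11.06 and 11.29 on the triple mutant WAT arrays, against 10.93, 10.94 and 10.86 on the ob/ob WAT arrays. All 3 triple mutant arrays were above all 3 ob/ob arrays, but by little (log2 change 0.27, SE 0.08, limma adjusted p = 0.0266). The call was lost without any 1 of triple mutant WAT arrays 1 and 3 and ob/ob WAT arrays 1, 2 and 3, with adjusted p from 0.055 to 0.0919, and with only the 6 WAT arrays in the fit (0.0561).

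Pfkl, the phosphofructokinase subunit typical of liver, was at 10.05, 10.03 and 10.71 in triple mutant WAT, against 7.46, 8.01 and 8.39 in ob/ob WAT. The lowest triple mutant array was well above the highest ob/ob array, and the rise was 4.96-fold (log2 change 2.31, SE 0.23, adjusted p = 1.78e-05), larger than that of 99.7% of all genes. The size of this fold is uncertain, since ob/ob WAT array 1 lay below its highest control of 7.52. Arrays 2 and 3 of that group were above theirs, at 7.40 and 7.57. Pfkp, the subunit first known from platelets, was at 9.36, 9.19 and 9.32 in triple mutant WAT and at 9.17, 8.93 and 8.85 in ob/ob WAT. The groups just failed to overlap, and the change was not called (0.31, SE 0.18, adjusted p = 0.222), although it was without triple mutant BAT array 3, whose Pfkp value adds to the shared spread (0.31, adjusted p = 0.0411). Within an array, Pfkl minus Pfkp was 0.69, 0.84 and 1.39 in triple mutant WAT, against -1.71, -0.92 and -0.46 in ob/ob WAT. The sign of this difference depends on the probes and is not read, but its means of 0.97 ± 0.37 in triple mutant WAT and -1.03 ± 0.63 in ob/ob WAT (SD, n = 3) say that the signals of the isozymes changed unequally.

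Pfkfb3, whose product makes the activator of phosphofructokinase, was at 11.44, 11.44 and 11.11 in triple mutant WAT, against 9.41, 9.79 and 10.21 in ob/ob WAT. Triple mutants were higher on every array, by 2.87-fold (log2 change 1.52, SE 0.19, adjusted p = 7.27e-05).

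The enzymes that split and interconvert the trioses rose by similar amounts. Aldoa, which cleaves fructose bisphosphate, was at 12.53, 12.39 and 12.48 in triple mutant WAT and at 11.51, 11.69 and 11.97 in ob/ob WAT (log2 change 0.74, SE 0.12, adjusted p = 0.000603). Tpi1, which interconverts the triose phosphates, was at 11.40, 11.32 and 11.47 in triple mutant WAT and at 10.37, 10.74 and 10.93 in ob/ob WAT (0.71, SE 0.14, adjusted p = 0.00185). In both, ob/ob WAT array 1 was the lowest and array 3 the highest of its group. Both genes had narrow triple mutant groups and wider ob/ob groups, with SDs of 0.07 and 0.23 for Aldoa and 0.08 and 0.29 for Tpi1.

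Pgk1, the first step that yields ATP, was at 10.67, 10.68 and 10.94 in triple mutant WAT, against 10.35, 10.06 and 9.98 in ob/ob WAT (log2 change 0.63, SE 0.12, adjusted p = 0.00113). Eno1, which makes phosphoenolpyruvate, was at 11.62, 11.47 and 11.32 in triple mutant WAT, against 11.13, 11.08 and 11.07 in ob/ob WAT (0.38, SE 0.08, adjusted p = 0.00415). Neither pair of groups overlapped. At the genes' own loci the changes were 0.62 for Pgk1 (SE 0.11, adjusted p = 0.00103) and 0.39 for Eno1 (SE 0.11, adjusted p = 0.018), both close to those of the brightest probe sets.

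Of the lactate dehydrogenase subunits, Ldhb was called and Ldha was not. Ldha, which favours lactate formation, was at 12.09, 11.95 and 12.07 in triple mutant WAT and at 11.68, 11.85 and 11.99 in ob/ob WAT. The groups overlapped, and the change was 0.20 (SE 0.09, adjusted p = 0.132, 95% interval -0.01 to 0.40). Ldhb was at 9.12, 9.02 and 9.67 in triple mutant WAT, against 5.48, 7.45 and 8.61 in ob/ob WAT. All triple mutant arrays were higher, but the ob/ob arrays ranged widely, with array 1 below the antigenomic controls and their mean of 7.18 as well, so the log2 change of 2.09 (SE 0.56, adjusted p = 0.0123, 95% interval 0.86 to 3.32) is no estimate of a fold. Without ob/ob WAT array 1 it was 1.24 (adjusted p = 0.00886), and with the 6 WAT arrays alone the adjusted p was 0.0549. At its own locus Ldhb was at 7.95, 7.83 and 8.50 in triple mutant WAT, against 5.64, 6.45 and 7.36 in ob/ob WAT, with every ob/ob array below its highest control (adjusted p = 0.00272). Taking those arrays at the controls, the own-locus signal was at least 1.51-fold higher in triple mutant WAT. Ldha minus Ldhb was 2.97, 2.94 and 2.40 in triple mutant WAT, against 6.20, 4.40 and 3.38 in ob/ob WAT. No array of 1 group reached the range of the other. The difference was smaller in triple mutants on every array, and its size is not estimated, since Ldhb in ob/ob WAT was near or below the controls.

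**Figure D2:**
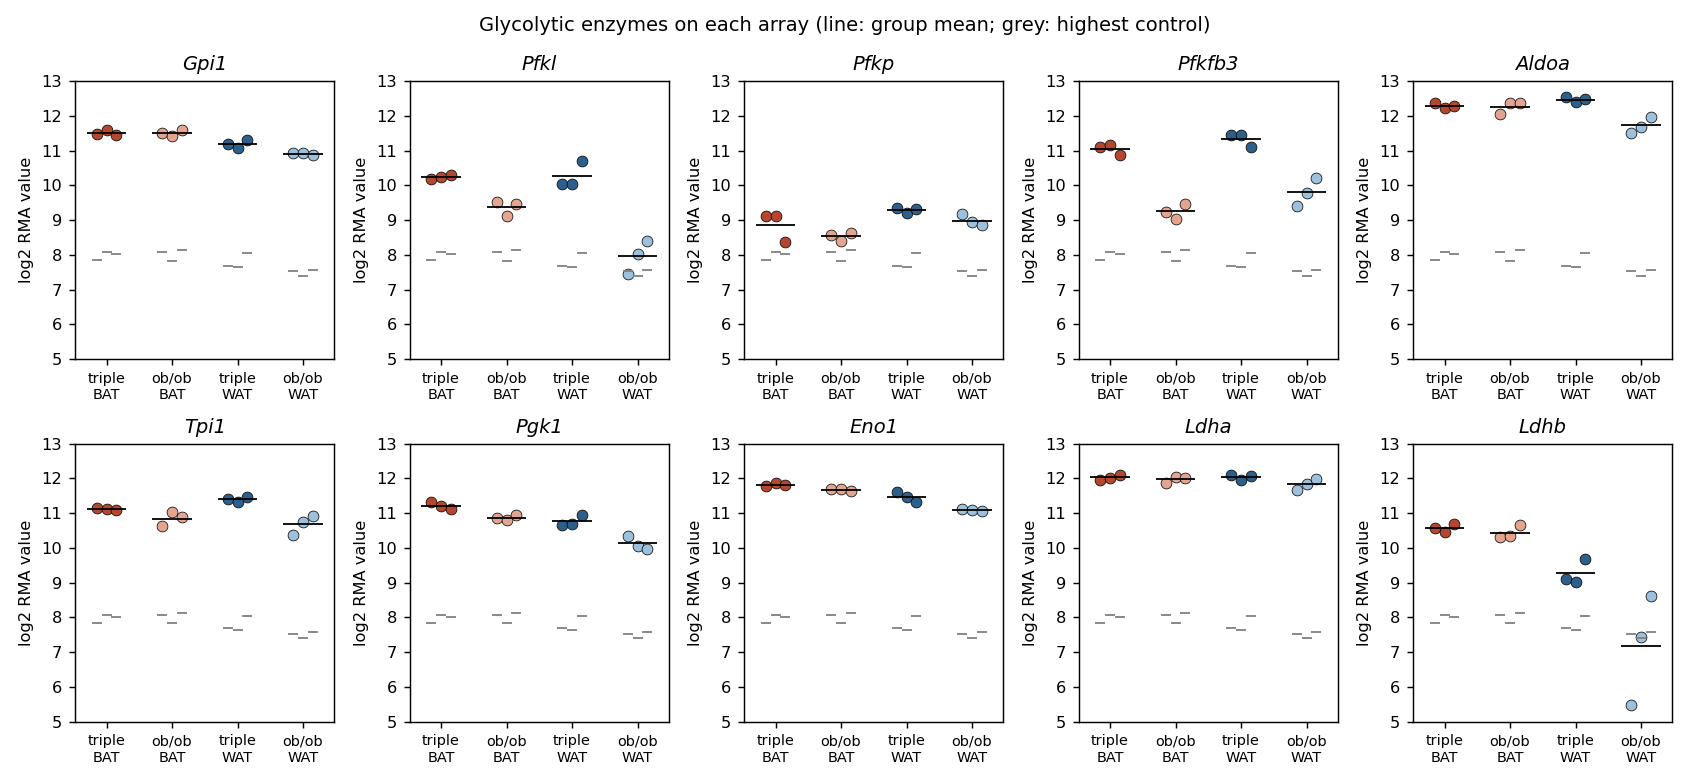
Log2 RMA value of each glycolytic enzyme (vertical axis, same scale in all panels) on each of 3 arrays in triple mutant BAT, ob/ob BAT, triple mutant WAT and ob/ob WAT, with group means as lines and the highest antigenomic control of each array as grey marks. Pfkl and Ldhb were lowest in ob/ob WAT, where 1 array of each lay below the controls, Pfkfb3 was higher in triple mutants in both tissues, and Ldha stayed between 11.68 and 12.11 on all arrays.

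In WAT 17.6% of all genes were called higher and 16.7% lower, the background for the list and marker counts that follow. Of 18 other glycolytic enzymes, 8 rose and 3 fell in triple mutant WAT, with a median log2 change of 0.46. Many are dim, and 5 to 7 of the 18 exceeded the controls on a WAT array. Where a gene of these lists exceeded the controls on no array of a group, its fold is given as a bound with that group at the controls, and where neither group did, the call alone is given. The medians include such genes. Where a group exceeded the controls on only some of its arrays, the change is given and its size is uncertain. Among those called, the hexokinases went both ways: Hk2, the insulin-responsive hexokinase of fat and muscle, rose by 1.59, and Hk3, which is abundant in myeloid cells, was at least 1.55-fold lower (adjusted p = 7.27e-06). Among isozymes of the 10 genes, Pfkm, the muscle-type phosphofructokinase, was at least 1.93-fold higher (adjusted p = 0.00974). Eno2, the enolase of neurons, was called lower (adjusted p = 0.000116) with neither group above the controls. Aldoc, Pgk2, Ldhc and Eno3 were not called, and none of them exceeded the controls in either WAT group.

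Enzymes that set the level of the phosphofructokinase activator, or oppose phosphofructokinase, gave 4 higher and 1 lower of 6 in triple mutant WAT. Pfkfb1 rose by 1.79, and Fbp1, a bisphosphatase that opposes phosphofructokinase, was at least 1.11-fold higher. Fbp2, a second such bisphosphatase, and Tigar (under an older clone name) were called higher and Pfkfb4 lower, with neither WAT group above the controls. Of 8 glucose and lactate transporters 5 rose and none fell, among them the insulin-responsive glucose transporter Slc2a4 (1.86), the monocarboxylate transporters Slc16a1 (1.50) and Slc16a7 (0.53), and their partner Bsg (0.40). Slc2a1, the widely expressed glucose transporter, had a change of -0.53 that was not called (adjusted p = 0.0746).

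Of 14 genes that pass pyruvate into mitochondria or control its use there, 11 rose and 2 fell in WAT, with a median of 1.37. The mitochondrial pyruvate carrier subunits Mpc2 and Mpc1, listed under the older names Brp44 and Brp44l, rose by 2.48 and 1.20, and the pyruvate dehydrogenase subunit Dlat by 1.44. Pdk2, a kinase that restrains pyruvate dehydrogenase, rose by 2.11. In the glycerol phosphate branch 4 of 6 rose and none fell (median 1.13), with Pck1, which makes phosphoenolpyruvate for glycerol synthesis, at 3.47 and Gpd2, the mitochondrial glycerol phosphate dehydrogenase, at least 2.41-fold higher. In the pentose phosphate pathway 4 of 7 rose and none fell (median 0.43), led by Taldo1 (0.98) and Rpe (0.80). Among 10 regulators of glycolytic genes 6 rose and 2 fell, with Epas1 at 0.74. Ppara was at least 3.07-fold and Ppargc1a at least 1.61-fold higher, and Myc at least 1.3-fold lower. Of 19 hypoxia response genes 7 rose and 2 fell (median 0.21), with Vegfa at 1.70 and Egln1 at 1.08. Egln3 was at least 1.71-fold higher, and Car9 was called lower with neither group above the controls.

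Markers of cell types differed between the same WAT groups. Of 10 macrophage markers 9 fell (median -3.37), and their summed linear signal was 3030 to 3151 in triple mutant WAT, against 21040 to 27087 in ob/ob WAT. Of 8 white adipocyte markers 6 rose, with a summed signal of 31769 to 33799 in triple mutant WAT, against 14035 to 24302 in ob/ob WAT. The list and its sums hold Cidec, which the labels give as deleted in triple mutants, and the leptin gene Lep. Neither was among the 6 that rose. All 8 brown adipocyte markers rose, and so did the 7 other than Cidea, whose summed signal was 8261 to 13207 in triple mutant WAT, against 440 to 794 in ob/ob WAT. Erythroid markers rose (5 of 5), 3 of 6 endothelial markers rose, and 0 of 5 neutrophil and 0 of 10 skeletal muscle markers were called, none of either list above the controls in WAT. Within ob/ob WAT, mean white adipocyte markers were 10.29, 10.94 and 11.27 on arrays 1 to 3. Pfkl, Pfkfb3, Aldoa, Tpi1, Ldha and Ldhb ran in the same order, and Pgk1, Pfkp and Eno1 in the reverse order. Array 1 was the lowest of its group for 6 of the 10 genes and the highest for 3. Over all genes array 1 was the lowest for 34.2% and the highest for 36.5%. In these bulk samples fewer cells of a type and less RNA per cell cannot be told apart, and the part of cell composition in the glycolytic changes was not tested.

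**Figure D3:**
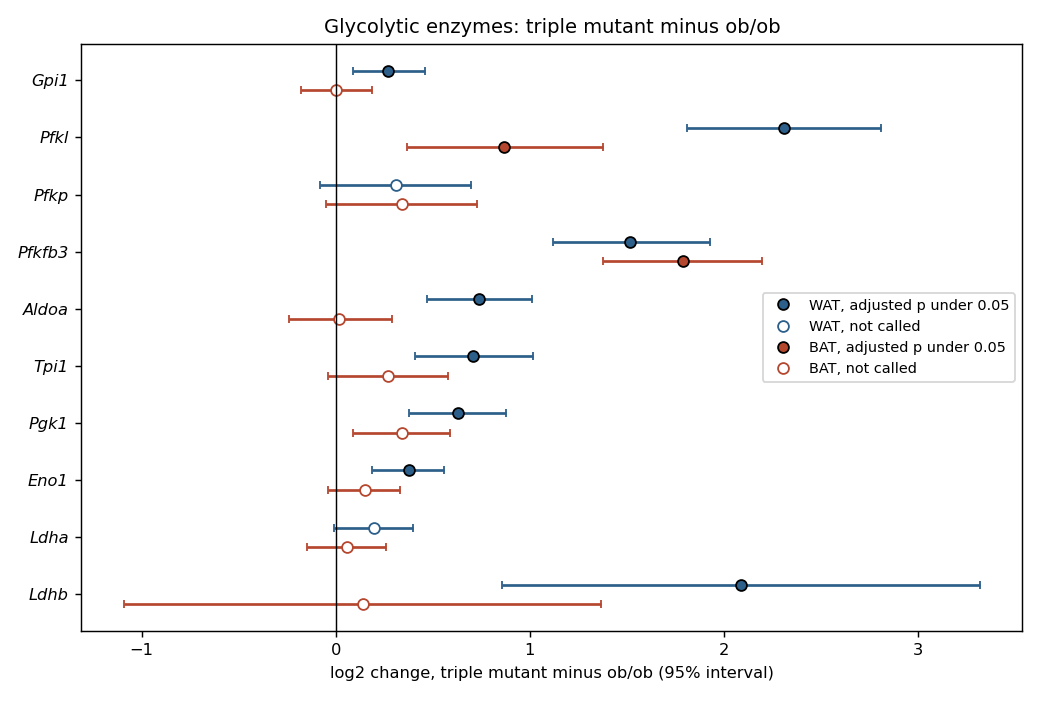
Log2 change of each glycolytic enzyme, triple mutant minus ob/ob (horizontal axis), in WAT and in BAT, with 95% intervals from limma over 12 arrays and filled points for an adjusted p under 0.05. Pfkl and Pfkfb3 were called in both tissues, and Ldhb had the widest intervals.

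In brown fat, 2 of the 10 genes rose in triple mutants relative to ob/ob mice, Pfkfb3 and Pfkl, and none fell. Over all genes tested, 10.4% were called higher, 6.97% lower and 17.4% either way, so the share of 2 in 10 is close to the background. The median log2 change of the 10 was 0.21, against -0.03 over all genes. The groups did not overlap, with triple mutants higher, for 5 of the 10 (Pfkl, Pfkfb3, Tpi1, Pgk1 and Eno1), as for 18.2% of all genes. Groups failed to overlap in either direction for 35.5% of all genes, and with triple mutants lower for 17.3%.

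Pfkfb3 was at 11.10, 11.15 and 10.86 in triple mutant BAT, against 9.24, 9.04 and 9.46 in ob/ob BAT. The lowest triple mutant array exceeded the highest ob/ob array, and the rise was 3.46-fold (log2 change 1.79, SE 0.19, adjusted p = 0.000305), larger than that of 99.9% of all genes. Pfkl was at 10.17, 10.24 and 10.30 in triple mutant BAT, against 9.51, 9.12 and 9.46 in ob/ob BAT (0.87, SE 0.23, adjusted p = 0.0226). Its groups were apart on every array, but the call was lost without triple mutant BAT array 2 (0.87, adjusted p = 0.0607) or 3 (0.84, 0.0702) or ob/ob BAT array 2 (0.75, 0.0668). It was lost as well without the 3 arrays with high muscle markers (0.76, 0.25), whereas the call of Pfkfb3 was kept.

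Among the later steps of the pathway in BAT, Pgk1 came nearest to a call. It was at 11.33, 11.20 and 11.11 in triple mutant BAT, against 10.85, 10.81 and 10.96 in ob/ob BAT (log2 change 0.34, SE 0.12, adjusted p = 0.063), and was called when triple mutant WAT array 3 (adjusted p = 0.0456) or ob/ob WAT array 1 (0.04) was left out. Tpi1 was at 11.15, 11.12 and 11.08 in triple mutant BAT, against 10.62, 11.03 and 10.89 in ob/ob BAT (0.27, SE 0.14, adjusted p = 0.215). Eno1 was at 11.78, 11.87 and 11.81 in triple mutant BAT, against 11.70, 11.69 and 11.63 in ob/ob BAT (0.15, SE 0.08, adjusted p = 0.268), and at its own locus the change was 0.02 (SE 0.11, adjusted p = 0.924). The triple mutant arrays were the higher ones for all 3 genes, by amounts the test did not separate from the spread.

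Pfkp was at 9.12, 9.12 and 8.37 in triple mutant BAT and at 8.56, 8.39 and 8.63 in ob/ob BAT. Triple mutant array 3 was below the ob/ob range, and the change was not called (0.34, SE 0.18, adjusted p = 0.218), but without that array it was (0.59, adjusted p = 0.012). Aldoa was at 12.36, 12.23 and 12.28 in triple mutant BAT and at 12.06, 12.38 and 12.36 in ob/ob BAT (0.02, SE 0.12, adjusted p = 0.919). Its 2 highest ob/ob values were on the arrays with muscle marker means of 11.06 and 10.79, and its lowest was on the array at 7.62. In triple mutant BAT the muscle marker means of arrays 1 to 3 were 10.59, 8.30 and 6.24, an order that Aldoa did not follow. The part of muscle in the Aldoa values was not tested. Without ob/ob BAT array 1, or without triple mutant BAT array 1, the sign of the Aldoa change turned (-0.08 and -0.01).

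Gpi1 was at 11.48, 11.58 and 11.45 in triple mutant BAT and at 11.50, 11.41 and 11.60 in ob/ob BAT (log2 change 0.00, SE 0.08, adjusted p = 0.985). Ldha was at 11.97, 12.01 and 12.11 in triple mutant BAT and at 11.88, 12.03 and 12.01 in ob/ob BAT (0.06, SE 0.09, adjusted p = 0.736). Ldhb was at 10.58, 10.47 and 10.70 in triple mutant BAT and at 10.31, 10.35 and 10.66 in ob/ob BAT (0.14, SE 0.56, adjusted p = 0.898). All 3 genes had overlapping groups. Their 95% intervals were -0.18 to 0.19 for Gpi1, -0.15 to 0.26 for Ldha and -1.09 to 1.37 for Ldhb, the last wide because the spread of the ob/ob WAT arrays enters the shared estimate. Ldha minus Ldhb averaged 1.45 ± 0.08 in triple mutant BAT and 1.53 ± 0.17 in ob/ob BAT, and Pfkl minus Pfkp averaged 1.36 ± 0.49 and 0.83 ± 0.11 in the same groups (SD, n = 3).

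In BAT 10.4% of all genes were called higher and 6.97% lower, the background for the list and marker counts that follow. The counts of other glycolytic enzymes, transporters and hypoxia response genes are near it. Other glycolytic enzymes in BAT gave 2 higher and 1 lower of 18 (median 0.05), with Pgam1, the phosphoglycerate mutase of most tissues, at 0.68. Gapdhs, a testis form of glyceraldehyde phosphate dehydrogenase, was called higher and Hk3 lower, with neither BAT group above the controls. The isozymes Pfkm (-0.19) and Eno3 (-1.09) were not called, nor were Aldoc, Pgk2, Eno2 and Ldhc, which exceeded the controls in neither BAT group. Fbp2 and Fbp1 were the 2 of 6 bisphosphate regulators called, both higher with neither BAT group above the controls, and Slc16a1 (0.73) was the only 1 of 8 transporters. Pyruvate entry genes gave 7 higher and 1 lower of 14 (median 0.48), with Mpc2 at 1.21, the pyruvate dehydrogenase components Pdhx at 1.10 and Dld at 1.05, and Pdp1 at -0.52. Pdp2, a phosphatase that activates pyruvate dehydrogenase, was at least 1.18-fold higher. In the glycerol phosphate branch 2 of 6 rose, Gyk, the glycerol kinase (1.44), and Pck1 (0.74). In ob/ob BAT Gyk averaged 7.76 and Pdhx 7.79, against highest controls of 7.83 to 8.13, so the sizes of their changes are uncertain. The pentose phosphate pathway had 4 of 7 higher, with Rpe at 1.11 and Pgd at 0.68. Of the regulators 4 of 10 rose and 1 fell, with Hif1a at 0.78, Mlx at 0.73 and Myc at least 1.09-fold lower. Of the hypoxia response genes 3 of 19 rose, Ero1l (0.73), Egln1 (0.41) and Higd1a, the last with neither BAT group above the controls.

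Marker lists also differed between the BAT groups. All 10 macrophage markers fell (median -1.56; summed signal 2029 to 2203 in triple mutant BAT, against 4575 to 9617 in ob/ob BAT). White adipocyte markers gave 2 higher and 1 lower of 8, the lower 1 being Lep and none being Cidec. Brown adipocyte markers gave 2 higher of 8 (neither of them Cidea) and erythroid markers 2 higher of 5. Endothelial markers gave 1 higher and 1 lower of 6, and neutrophil markers 0 of 5. None of 10 skeletal muscle markers was called (median -1.57), with summed signals of 950 to 20491 in triple mutant BAT and 2768 to 28725 in ob/ob BAT. The part of these cell types in the BAT values was not tested.

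The genotype difference was larger in WAT than in BAT for Pfkl and Aldoa, by a test of the difference between the 2 tissues, and none of the 10 was called in the other direction. Over all genes tested, 5.47% were called higher in this comparison, 8.4% lower and 13.9% either way, so the share of 2 in 10 is near the background. Pfkl differed by 1.44 (SE 0.32, adjusted p = 0.0155), from changes of 2.31 in WAT and 0.87 in BAT. The size of its WAT change is uncertain, since Pfkl lay below the controls on ob/ob WAT array 1. Aldoa differed by 0.72 (SE 0.17, adjusted p = 0.021), from 0.74 in WAT and 0.02 in BAT. Aldoa lost the call when ob/ob WAT array 2 was left out (0.70, adjusted p = 0.0508), and likewise for ob/ob BAT array 3 (0.67, 0.0542). With the replicate number, which pairs the tissues, as a fixed block, limma called Pfkl (adjusted p = 0.0173) and Aldoa (0.00874). That fit called 3640 genes in all. Without the 3 BAT arrays with high muscle markers neither passed (Pfkl 1.55, adjusted p = 0.108; Aldoa 0.54, 0.203), in a fit that called 358 genes in all, against 3002. In the same comparison 5 of 8 brown adipocyte markers (4 of 7 without Cidea) were called higher and 6 of 10 macrophage markers lower, while 0 of 10 skeletal muscle markers were called (median 1.54). Their part in these differences was not tested. Of the 18 other glycolytic enzymes 2 were higher and 3 lower, with Hk2 at 1.12 among the higher and Hk1 and Hk3 among the lower, and Pfkm did not pass (adjusted p = 0.0641). Pyruvate entry genes gave 7 higher and 0 lower of 14, with Pdk2 at 1.76.

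Ldhb, at 1.95, did not pass (SE 0.79, adjusted p = 0.124). Leaving out ob/ob WAT array 3 brought it past the threshold (2.66, adjusted p = 0.0127). It was 1.10 without ob/ob WAT array 1, and at the own locus it did not pass either (adjusted p = 0.0684). For Tpi1 (0.44, adjusted p = 0.158), Pgk1 (0.29, 0.254), Gpi1 (0.27, 0.159), Eno1 (0.23, 0.214), Ldha (0.14, 0.508), Pfkp (-0.03, 0.942) and Pfkfb3 (-0.27, 0.532) the difference did not pass. Being called in WAT and not in BAT therefore does not show a tissue difference for Tpi1, Pgk1, Gpi1, Eno1 or Ldhb. For Pfkfb3, called in both, the 95% interval of the difference was -0.84 to 0.31.

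In ob/ob mice, 7 of the 10 genes differed between BAT and WAT, 6 higher and 1 lower in BAT. Over all genes tested, 18.2% were called higher, 19% lower and 37.2% either way. This comparison shares its WAT and BAT arrays with the genotype comparisons, so the values are given side by side and no overlap is read. Ldhb was higher in BAT by 3.26 (SE 0.56, adjusted p = 0.000941), no estimate of a fold, and by at least 3.54-fold at its own locus (adjusted p = 9.1e-05), with every BAT array above every WAT array. The groups did not overlap for 7 of the 10 genes, 6 with BAT higher (30.1% of all genes) and 1, Pfkp, with BAT lower (22% of all genes), against 52.2% of all genes in either direction. Pfkl was higher by 1.41 (SE 0.23, adjusted p = 0.000659), Pgk1 by 0.74, Gpi1 by 0.59, Eno1 by 0.58 and Aldoa by 0.54, with adjusted p of 0.000286 to 0.00506. Pfkfb3 was lower in BAT, with overlapping groups (log2 change -0.56, SE 0.19, adjusted p = 0.0344). These values ignore the pairing of the tissues by replicate number. With that number as a fixed block the same 7 genes were called, among 8604 genes in all.

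The log2 change of Pfkfb3 was -0.36 without ob/ob WAT array 3. Its call was lost with quantile normalization within each tissue (-0.49, adjusted p = 0.0668), and without any 1 of ob/ob BAT arrays 1 and 2 and ob/ob WAT arrays 2 and 3 (adjusted p from 0.0684 to 0.122). It was lost too with the 6 ob/ob arrays alone (0.0784) and without the muscle-rich arrays (0.191). Pfkp, at -0.45 (SE 0.18, adjusted p = 0.0649), Tpi1, at 0.16 (0.372), and Ldha, at 0.13 (0.278), were not called. Pfkp was lower on every BAT array than on every WAT array and passed without triple mutant BAT array 3 (-0.45, adjusted p = 0.00649), as it did with the replicate number, which pairs the tissues, as a random block (0.0411), but not with it as a fixed block (0.0655). All 10 skeletal muscle markers were also higher in ob/ob BAT (median 4.47), as were Pfkm (at least 4.74-fold) and Eno3, the muscle enolase (at least 7.1-fold). Without the 3 BAT arrays with high muscle markers Aldoa, like Pfkfb3, was no longer called (0.33, adjusted p = 0.2), and the count was 5. Macrophage markers were lower in ob/ob BAT than in ob/ob WAT for 9 of 10, and brown adipocyte markers higher for 7 of 8 (6 of 7 without Cidea). Their part in these values was not tested.

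In triple mutants, 3 of the 10 genes were higher in BAT than in WAT and none was lower. Over all genes tested, 6.45% were called higher, 7.93% lower and 14.4% either way. Pgk1 was higher by 0.45 (SE 0.12, adjusted p = 0.0226), Eno1 by 0.35 (SE 0.08, 0.0174) and Gpi1 by 0.33 (SE 0.08, 0.0246). With the replicate number as a fixed block, which pairs the tissues, Gpi1 was not called (0.33, adjusted p = 0.059). In that fit Pgk1 (0.45, adjusted p = 0.0493) and Eno1 (0.35, 0.0325) were still called, a count of 2. At its own locus Eno1 was not called (0.34, adjusted p = 0.0657), while Ldhb was (1.42, SE 0.33, 0.0153). The brightest Ldhb probe set gave 1.31 (SE 0.56, adjusted p = 0.154), with every BAT array above every WAT array. Leaving out ob/ob WAT array 1 (0.00775) or array 3 (0.0482) brought it past the threshold. The count of 3 became 1 without triple mutant WAT array 1 or BAT array 1, and 0 without triple mutant WAT array 2, without BAT array 2, or when the arrays with high muscle markers were left out. Pfkl (-0.03), Ldha (-0.01), Aldoa (-0.17), Tpi1 (-0.28), Pfkfb3 (-0.29) and Pfkp (-0.42) were not called, and for Pfkp, Aldoa and Tpi1 every BAT array was below every WAT array. In all, 7 genes had groups that did not overlap, 4 with BAT higher and 3 with BAT lower, against 16.7% and 16% of all genes in these directions and 32.7% in either. Brown adipocyte markers gave 6 higher and 1 lower of 8 in triple mutant BAT (5 higher and 1 lower of 7 without Cidea), macrophage markers 3 lower of 10 and skeletal muscle markers 3 higher of 10, and their part was not tested. Of the 18 other glycolytic enzymes 4 were higher and 3 lower, among them the hexokinase Hk1 (at least 1.85-fold higher in BAT).

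**Figure D4:**
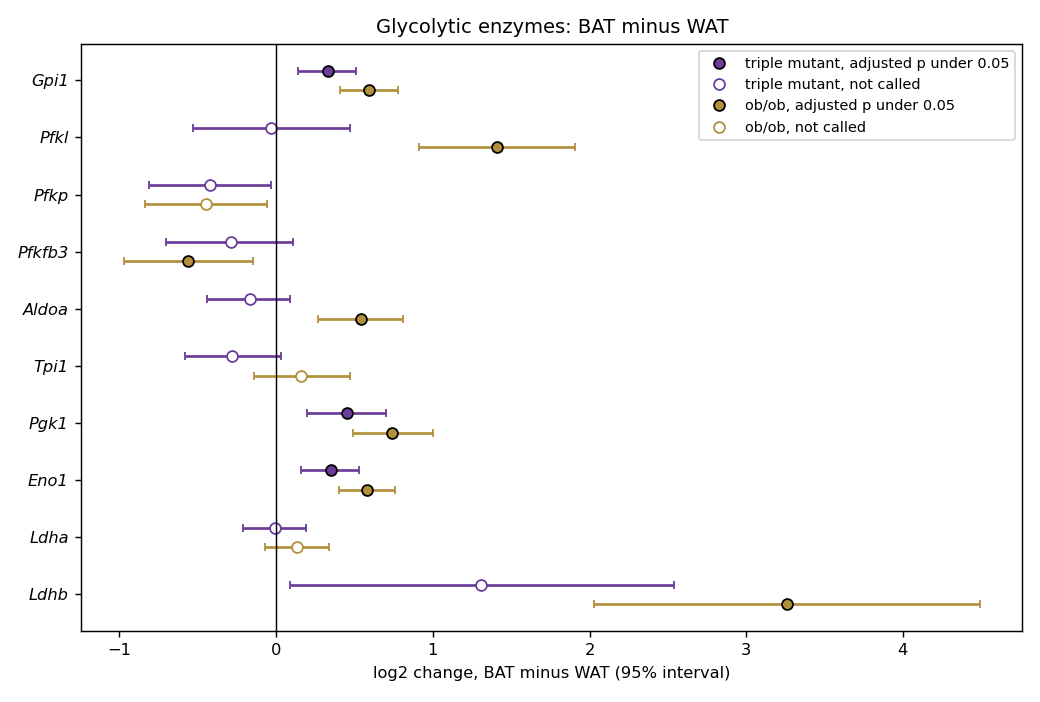
Log2 change of each glycolytic enzyme, BAT minus WAT (horizontal axis), in triple mutants and in ob/ob mice, with 95% intervals from limma over 12 arrays and filled points for an adjusted p under 0.05. Pfkl was at -0.03 in triple mutants and 1.41 in ob/ob mice, and Ldhb at 1.31 and 3.26.

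Across the 4 groups, 6 of the 10 genes had their highest mean in triple mutant WAT (Pfkl, Pfkp, Pfkfb3, Aldoa, Tpi1 and Ldha) and 4 in triple mutant BAT (Gpi1, Pgk1, Eno1 and Ldhb). The lowest mean was that of ob/ob WAT for 8 genes and that of ob/ob BAT for Pfkp and Pfkfb3. For Pfkl the 2 highest groups, the triple mutant ones, overlapped, and the step down to ob/ob BAT (mean 9.36) and the next to ob/ob WAT (7.95) were each free of overlap. Pfkfb3 had a pair of overlapping triple mutant groups (11.04 in BAT and 11.33 in WAT) above a pair of overlapping ob/ob groups (9.25 in BAT and 9.81 in WAT). Eno1 was the only gene with no overlap between any neighbours (11.82 in triple mutant BAT, 11.67 in ob/ob BAT, 11.47 in triple mutant WAT and 11.09 in ob/ob WAT), and at its own locus its BAT groups overlapped. For Ldha every neighbouring pair overlapped, and the 4 means lay between 11.84 and 12.04.

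The 3 Pgk1 probe sets gave nearly the same value on every array. At its own locus Eno1 was at 11.23, 11.25 and 11.09 in triple mutant WAT and at 10.63, 10.71 and 11.06 in ob/ob WAT, again without overlap. For Ldhb the own-locus set was at 9.77, 9.37 and 9.40 in triple mutant BAT and 9.23, 9.29 and 9.44 in ob/ob BAT. The levels of different probe sets are not compared, since probes differ in brightness, but both Ldhb sets ordered the ob/ob WAT arrays alike.

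**Figure D5:**
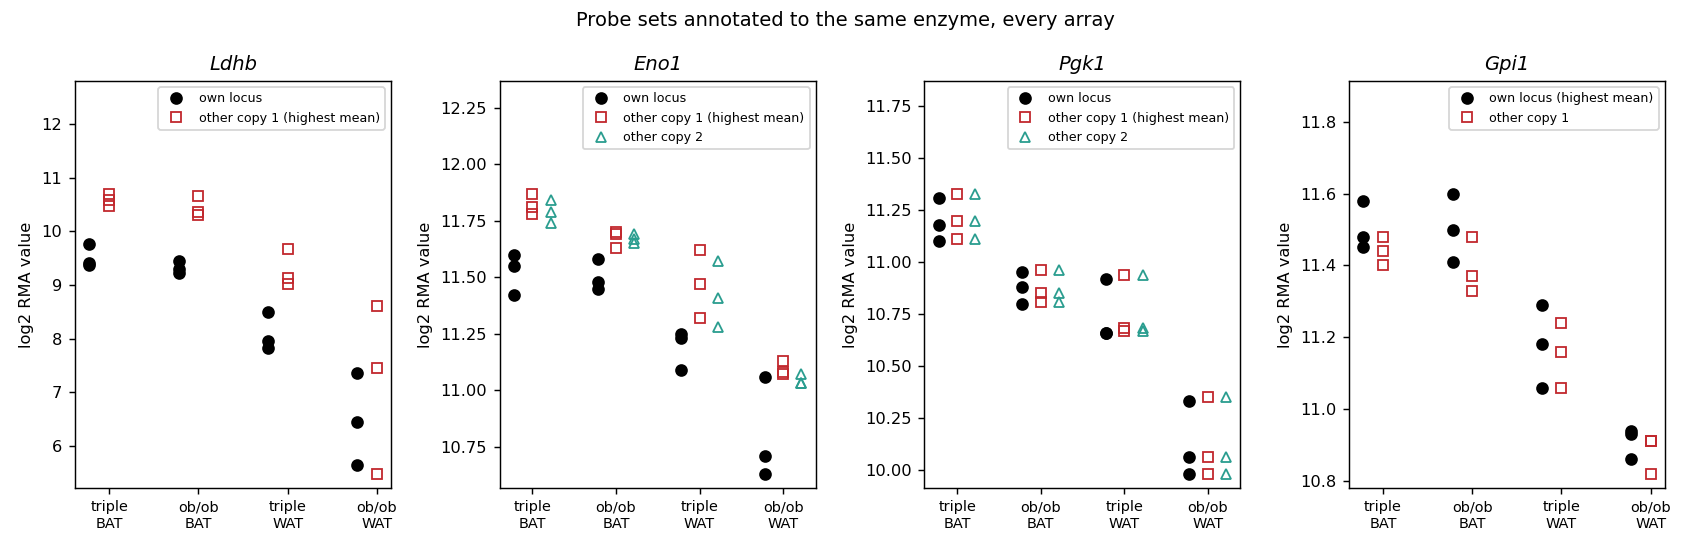
Log2 RMA value (vertical axis, a scale per panel) of every probe set annotated to Ldhb, Eno1, Pgk1 and Gpi1 on each array of triple mutant BAT, ob/ob BAT, triple mutant WAT and ob/ob WAT. Filled circles are the probe set at the gene's own locus and open symbols are copies on other chromosomes; the 3 Pgk1 sets nearly coincide, while the Ldhb sets share an order of groups at different levels.

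Likeness to other genes was measured as the root mean square difference between 12-array profiles, each centred on its own mean, among 10549 genes with a mean of at least 6. Nearest to Ldhb were Thrsp, a gene of fatty acid synthesis (0.39), and Slc25a35, a mitochondrial carrier family member (0.52). Thrsp was at 9.76, 9.56 and 10.22 in triple mutant WAT and at 6.50, 8.30 and 8.90 in ob/ob WAT, with ob/ob array 1 the lowest, as for Ldhb. Near to Pfkfb3 was Insig1 (0.27), a sterol sensor protein. Insig1 was at 12.03, 11.91 and 11.94 in triple mutant WAT, against 9.95, 10.34 and 10.59 in ob/ob WAT, and at 10.96, 11.09 and 11.29 in triple mutant BAT, against 9.64, 9.80 and 9.75 in ob/ob BAT. Nearest to Pfkp were Atpbd4 (0.13) and Apex1, a DNA repair enzyme (0.14), and nearest to Ldha were Lcmt1, a methyltransferase, and Rbm10, a splicing factor (0.06 each). Ldha varied so little that many flat profiles lie near it.

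The authors' deposited table of changed genes in WAT lists 8 of the 10 genes, all as higher in triple mutants. Its log2 fold changes are 2.27 for Pfkl, 1.51 for Pfkfb3, 0.77 for Aldoa, 0.74 for Tpi1 and 0.31 for Gpi1. The authors' deposited table gives 0.64 to 0.65 for 3 probe sets of Pgk1 and 0.39 to 0.41 for 3 of Eno1, and lists Ldhb by its own-locus probe set at 1.40. The authors' deposited table for BAT lists Pfkfb3 alone of the 10, at 1.85. That list holds 1164 entries and its cutoff may differ from the one used here, so absence from it is not read. Among terms of genes higher in WAT, the authors' deposited table has the glycolytic process with 10 genes, Aldoa, Pfkl, Pgk1 and Tpi1 among them. Its fold enrichment is 3.82 and its Benjamini-adjusted p 0.0551. The same table has gluconeogenesis, with Pgk1 and Tpi1 (5.28, adjusted p 0.00545), and the glucose metabolic process, with Tpi1 (3.44, 0.00248). Other terms on sugars or hypoxia that hold some of the 10 had adjusted p from 0.38 to 0.828.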

How the data were processed

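Total RNA, extracted with Trizol per the labels' protocols, was hybridised to mouse gene arrays, 12 arrays in 4 groups of 3, each put in its group by its title. The authors deposited log2 values for 35556 probe sets. RMA and limma are named without versions per the submitters' processing notes. The authors' expression table also holds 12 array columns that match no sample label and were not used. Only its annotation was taken, with positions on build NCBIM37. The authors' lists of changed genes hold log2 fold changes and fold changes as ratios, and the term tables deposited by the authors hold p-values beside enrichment ratios.

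The main category held 28350 probe sets, and 25004 named exactly 1 gene. The brightest per gene was kept, which left 21651 genes. Of their symbols 18663 matched the RefSeq table directly, 2272 by an older symbol and 716 not. One model with 4 group means (lmFit, then eBayes; 8 residual degrees of freedom) covered all genes, run in limma 3.58.1 under R 4.3.3. Calls in the 5 comparisons used a two-sided Benjamini-Hochberg adjusted p, taken over all genes, of under 0.05. "Rose", "fell", "higher" and "lower" of a list's members mean called. The fit was tested on simulated data. Summed marker signals are sums of values on the linear scale. Bounds on folds set each array of a group with no array above the controls at its highest control. Python 3.11.15 and matplotlib 3.10.9 made the plots. The number of arrays limits the precision.

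The 10 genes, the gene lists and the markers were chosen with earlier results of these data known. Named from each other list were up to 4 genes with the smallest p among those called, plus the isozymes of the 10. Fbp1 and Slc2a1 in WAT, Pdp1 in BAT and the brown markers without Cidea were chosen after their values were seen. For Ldhb, Pfkp, Ldha and Pfkfb3 the 2 nearest profiles were named. Some genes that these rules name are not reported here. The replicate number pairs the tissues of a genotype: across genes, deviations from the group mean of same-numbered BAT and WAT arrays correlated at 0.15, 0.21 and 0.19 for triple mutants and at 0.22, 0.22 and 0.16 for ob/ob mice. Alternatives were the replicate block, other normalizations, filters and probe sets, 2-group fits, a variance trend and leaving out arrays. The own-locus probe sets and the fit without muscle-rich arrays were chosen after seeing the data.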

Additional observations from a re-analysis of the deposited data

Results flagged for a closer look

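The genotype difference of Pfkl was larger in WAT than in BAT by 1.44 on the log2 scale (limma adjusted p = 0.0155), as a test of the difference between the tissues. Its WAT and BAT changes were 2.31 and 0.87, each triple mutant minus ob/ob, and all 3 triple mutant arrays were higher in each tissue. Pfkl lay below the controls on ob/ob WAT array 1, so the size of its WAT change is uncertain. The genotype difference of Aldoa was larger in WAT than in BAT by 0.72 (adjusted p = 0.021), with changes of 0.74 and 0.02, and its triple mutant arrays were higher on 3 of 3 in WAT and overlapped with ob/ob in BAT. Aldoa was not called in 2 fits that each dropped a single array. Its adjusted p rose to 0.0508 on dropping ob/ob WAT array 2 and to 0.0542 on dropping ob/ob BAT array 3. Of all genes 13.9% were called for this difference, so 2 of 10 lies near that share. Muscle markers differed among the BAT arrays that enter both differences. They ran from 6.24 to 10.59 in triple mutant BAT and from 7.62 to 11.06 in ob/ob BAT. A fit without the 3 muscle-rich BAT arrays keeps 1 ob/ob BAT array. Its differences were 1.55 for Pfkl and 0.54 for Aldoa.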

How the results depend on the processing

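Beside the reported fit, 24 settings were run for the 10 genes in 5 comparisons. In WAT the count of 8 called genes was 7 to 9 when 1 array was left out, 7 with a replicate block, 6 with only the WAT arrays and 8 under the other settings. In BAT the count of 2 was 1 to 3 when 1 array was left out, falling to 1 without triple mutant BAT array 2 or ob/ob BAT array 2. The count of 2 for the difference between tissues was 1 to 3, falling to 1 without ob/ob WAT array 2 or ob/ob BAT array 3. The BAT minus WAT count was 0 to 4 in triple mutants, against 3, and 6 to 8 in ob/ob mice, against 7. Without the 3 BAT arrays with high muscle markers the counts were 1 in BAT, 0 for the difference between tissues, 0 for BAT minus WAT in triple mutants, 5 for BAT minus WAT in ob/ob mice and 8 in WAT, and over all genes 2108, 358, 2258, 3736 and 7195 were called, against 3760, 3002, 3112, 8060 and 7427. This setting leaves 9 arrays.

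Signs turned, in these settings, for changes that were not called. With quantile normalization within each tissue the BAT changes of Gpi1 and Aldoa were both -0.02 and the Pfkp difference between tissues 0.09. Without the muscle-rich arrays that Pfkp difference was 0.12, Pfkl and Ldha were at 0.01 and 0.02 for BAT minus WAT in triple mutants, and Tpi1 at -0.07 in ob/ob mice. Leaving out 1 array, the BAT change ranged from -0.08 to 0.08 for Aldoa and from -0.04 to 0.05 for Gpi1. The Pfkp difference between tissues ranged from -0.28 to 0.09, and BAT minus WAT in triple mutants from -0.05 to 0.02 for Ldha and from -0.14 to 0.20 for Pfkl. Of 600 single-gene values with 1 array left out 553 kept their direction and side of the threshold, and 559 of 590 did under the other settings.

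The replicate number does not pair the genotypes: same-numbered arrays correlated at -0.05, 0.07 and 0.11 in WAT and at -0.43, -0.24 and -0.23 in BAT. With the replicate block Gpi1 lost its WAT call (0.27, adjusted p = 0.102), and in triple mutants its tissue call (0.33, adjusted p = 0.059), and no other call among the 10 changed. The block left 1874 genes called in BAT over all genes, against 3760. Pgk1 was called in BAT with arrays centred on their median (0.39, adjusted p = 0.0337) and among the 7021 genes above the controls on at least 3 arrays (0.34, 0.0385). Leaving out 1 array, the change of Ldha minus Ldhb ranged from -2.53 to -1.12 in WAT and from -0.18 to -0.01 in BAT, and that of Pfkl minus Pfkp from 1.66 to 2.29 and from 0.25 to 0.69. Ldhb in ob/ob WAT lies at or below the antigenomic controls on some arrays, which limits its change to a direction. The causes of these shifts were not tested.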
